A study of Mus musculus with 4 samples.

Results

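The prostaglandin and leukotriene pathway was followed through 10 genes, chosen by symbol from the 24784 genes of the deposited table, and all 10 were found. They are the cyclooxygenases Ptgs1 and Ptgs2, the terminal synthases Ptges, Hpgds and Tbxas1, the prostaglandin E2 receptors Ptger2 and Ptger4, and the leukotriene synthesis genes Alox5, Alox5ap and Ltc4s. Polyadenylated RNA had been sequenced from tumour-associated macrophages, which were sorted by flow cytometry from liver tumours of male mice 6 to 8 weeks old. All of the mice had received Hepa 1-6, a mouse hepatoma cell line, by a route that the labels abbreviate as i.pv. There were 2 libraries of genotype Control and 2 of genotype OXCT1mKO, a label that names Oxct1, the gene of the mitochondrial enzyme that activates acetoacetate. The labels do not name the promoter or Cre line behind the knockout, nor do they say whether each library came from 1 animal or from a pool. The p-values therefore measure only the spread between these libraries, which may be technical.

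Eicosanoids are lipid mediators made from arachidonic acid, which phospholipases free from membranes. Cyclooxygenases turn it into prostaglandin H2, from which terminal synthases make prostaglandin E2, prostaglandin D2, prostacyclin or thromboxane. In the other branch, 5-lipoxygenase works with its activating protein at the nuclear envelope to make leukotriene A4, the precursor of leukotriene B4 and of the cysteinyl leukotrienes. Macrophages express both branches, and prostaglandin E2 is known for raising cyclic AMP in immune cells through the receptors EP2 and EP4.

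Levels are given in RPKM, which scales reads by gene length and library size, so that levels can be set side by side between genes. Comparisons between libraries depend on that scaling, since globin took 8.81% of the RPKM sum in control 1 and 0.132% to 0.327% in the others. Library sums ran from 325034 to 377575 RPKM, and the 2 largest were those of the controls. The read depth is unknown. Steps in the lowest values gave depths of 0.911 to 1.026 relative to control 1. Only depths near that of control 1 were searched, so a larger difference could not have shown. Oxct1 itself was 19.3 and 20.3 RPKM in control libraries against 14.7 and 15.4 RPKM in OXCT1mKO (-0.37 ± 0.09, limma adjusted p 0.0346, and 0.17 with libraries scaled to the same sum), a call that held under 5 of 12 alternatives. The controls stood apart from each other in blood transcripts. Erythroid markers summed to 24384 RPKM in control 1 and 846 RPKM in control 2, and neutrophil markers to 183 and 1353 RPKM.

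Ptgs2 and Alox5ap rose in OXCT1mKO, by 2.65-fold and 2.5-fold in mean RPKM. These were 2 of the 9 members that passed the filter of a mean RPKM of at least 1, and no member fell. Differences were tested with limma on log2(RPKM + 1), a scale that understates the change of low genes, with Benjamini-Hochberg adjustment over 12523 genes and a threshold of 0.05. The share called was 22.2% of the tested members against 32.8% of all tested genes, and upward calls alone made up 16.4% of all tested genes, so the number of calls among the members was not above that of genes in general. In 6 of the 9 tested members both OXCT1mKO libraries lay above both controls, and in 0 did both lie below, where the shares over all tested genes were 37.6% and 37%, or 74.7% together. The median log2 fold change of the tested members was 0.44, beside 0.00 over all tested genes. The filter left out Ptger2.

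The number of member calls depended on scaling and on single libraries. With each library scaled to the same RPKM sum, 5 members were called, all higher, namely Ptgs1, Ptgs2, Tbxas1, Ptger4 and Alox5ap. That scaling moved the median of all genes to 0.15 and the share of upward calls from 50.1% to 72.4% of all calls, while calls made up 31.8% of all tested genes and upward calls 23%. With globin left out of those sums 4 members were called (33.5% of all tested genes, 21.7% upward), the upward share of calls was 64.8%, and with libraries set to the same median it was 41.1%. Without OXCT1mKO 1 or OXCT1mKO 2 limma called 0 members, with 4 and 3 at an unadjusted p under 0.05, in fits that called 1 and 10 of all tested genes (0.00804% and 0.0798%). Without control 1 there were 4 member calls (27.7% of all tested genes), and without control 2 there were 3 (35.3%).

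**Figure D1:**
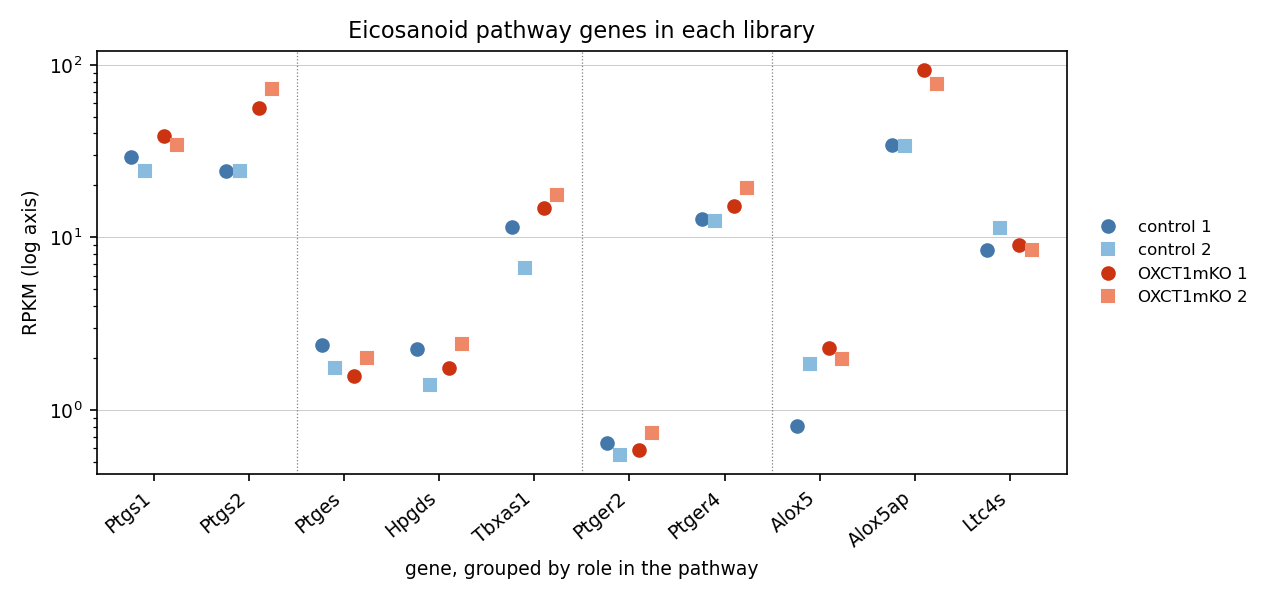
RPKM on a log axis for the 10 pathway genes, with 1 point per library (circles for replicate 1, squares for replicate 2; blue for control, red for OXCT1mKO). The 2 groups are widest apart at Ptgs2, where the controls were both at 24.3 RPKM and OXCT1mKO at 56.5 and 72.3 RPKM, and at Alox5ap.

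The cyclooxygenases came first. Ptgs1 encodes the constitutive enzyme and Ptgs2 the inducible one. The regions around their start sites are shown because the 2 genes encode enzymes of the same reaction but only Ptgs2 passed the test. Sequences are from RefSeq, build GRCm38.p6, on the plus strand, and cover the 250 bases before the annotated start and the first 30 bases after it. Ptgs1 spans chr2:36230176-36230455 and Ptgs2 spans chr1:150099781-150100060. Capitals mark every match to the motifs searched.
Ptgs1: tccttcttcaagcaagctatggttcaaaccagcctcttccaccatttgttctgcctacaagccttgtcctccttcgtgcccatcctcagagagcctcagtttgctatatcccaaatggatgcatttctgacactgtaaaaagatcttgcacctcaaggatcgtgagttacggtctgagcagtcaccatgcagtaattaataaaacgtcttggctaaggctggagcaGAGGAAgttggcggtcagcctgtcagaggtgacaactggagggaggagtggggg
Ptgs2: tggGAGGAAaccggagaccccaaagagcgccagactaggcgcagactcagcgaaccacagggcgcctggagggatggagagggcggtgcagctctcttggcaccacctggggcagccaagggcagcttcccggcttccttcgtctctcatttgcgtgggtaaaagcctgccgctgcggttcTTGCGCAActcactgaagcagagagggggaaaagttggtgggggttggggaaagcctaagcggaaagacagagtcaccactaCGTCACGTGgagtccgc

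In the Ptgs2 window the capitals are a PU.1 core (GAGGAA), a C/EBP match and the core of the cyclic AMP response element, which overlaps an E-box (CACGTG). The C/EBP letters searched were TTGCNNAA, and the cyclic AMP core was TGACG, found on the reverse strand. The Ptgs1 window held the PU.1 core alone. Both strands were searched. The search also covered the full cyclic AMP response element, TGACGTCA (1.83% of promoters). It covered AP-1, with the letters TGANTCA (7.57%). A TATA box, TATAAA (13.7%), and the NF-kB motif (4.08%) were searched as well. Of 27025 promoters in the table, 25.9% held the PU.1 core, 10.3% the C/EBP match, 20.1% the cyclic AMP core and 6.89% the E-box within the same window. The table had 9 of the 10 members, all but Alox5ap. The PU.1 core was in 7 of these 9, the C/EBP match in Ptgs2 and Hpgds, and the cyclic AMP core and the E-box in Ptgs2 alone of the 9. AP-1 was matched in Tbxas1, as was the TATA box. These matches are letters in a window and show no binding.

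Ptgs2 lies on the plus strand of chromosome 1, from 150100031 to 150108227 in GRCm38. Both controls measured 24.3 RPKM, and OXCT1mKO measured 56.5 and 72.3 RPKM. The means ± SD were 24.3 ± 0.05 and 64.4 ± 11.2 RPKM (n = 2). The groups did not overlap, and even the closest pair of libraries differed by 2.32-fold. On the log2 scale this was a rise of 1.36 ± 0.14 (SE; limma adjusted p 0.0127), and 98.4% of the tested genes had a lower fold change. The call was lost without OXCT1mKO 1 (1.54, limma adjusted p 0.105) and without OXCT1mKO 2 (1.18, limma adjusted p 0.0726). In bulk RNA, more cells that express a gene cannot be told apart from more RNA per cell.

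Ptgs1, on the plus strand of chromosome 2 from 36230426 to 36252272, was 29.3 and 24.2 RPKM in control libraries against 38.9 and 34.2 RPKM in OXCT1mKO. Both OXCT1mKO libraries were above both controls. At 0.44 ± 0.13 on the log2 scale the difference missed the threshold (limma adjusted p 0.0577). It passed without control 1 (0.57, limma adjusted p 0.0385), with equal RPKM sums (0.60, limma adjusted p 0.0244) and with those sums taken without globin (0.54, limma adjusted p 0.0395). A stricter filter of a mean RPKM of 5 also brought it under the threshold, at 0.0492. It failed with equal medians (0.36, limma adjusted p 0.09), without control 2 (0.31, limma adjusted p 0.108), and without OXCT1mKO 1 (0.35, limma adjusted p 0.281) or OXCT1mKO 2 (0.53, limma adjusted p 0.147). Within a library, the ratio of Ptgs2 to Ptgs1 was 0.829 and 1.00 in the controls and 1.45 and 2.11 in OXCT1mKO. The inducible gene was thus close to or below the level of the constitutive gene in the controls and above it in OXCT1mKO. With 2 libraries against 2, an exact two-sided permutation test cannot go below the 0.33 that it gave here.

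The terminal synthases set which prostanoid is made. Tbxas1, thromboxane A synthase, was 11.5 and 6.65 RPKM in control libraries against 14.7 and 17.7 RPKM in OXCT1mKO. The groups did not overlap, but the controls differed from each other by more than control 1 differed from OXCT1mKO 1. Its log2 fold change was 0.81 ± 0.26 (limma adjusted p 0.0679). It was 1.16 without control 1 (limma adjusted p 0.0228) and 0.45 without control 2 (limma adjusted p 0.0773).

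Ptges, the inducible microsomal prostaglandin E synthase that is often paired with Ptgs2, was 2.37 and 1.75 RPKM in control libraries against 1.58 and 1.99 RPKM in OXCT1mKO. The groups overlapped, and the log2 difference was -0.13 ± 0.17 (limma adjusted p 0.566). Its ratio to Ptgs2 within a library was 0.0977 and 0.072 in the controls and 0.028 and 0.0275 in OXCT1mKO, so the gap between the 2 transcripts was wider in both OXCT1mKO libraries. Hpgds, the haematopoietic prostaglandin D synthase, was 2.24 and 1.39 RPKM in control libraries against 1.75 and 2.42 RPKM in OXCT1mKO. These values overlapped too (0.14 ± 0.21, limma adjusted p 0.632). Neither gene was called under any of the alternative settings that tested it.

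Of the E2 receptor transcripts, Ptger4 (EP4) was by far the more abundant. It was 12.8 and 12.5 RPKM in control libraries against 15.1 and 19.4 RPKM in OXCT1mKO, without overlap. At 0.41 ± 0.14 on the log2 scale the difference missed the threshold (limma adjusted p 0.0751), but it passed with equal RPKM sums (0.57, limma adjusted p 0.0403) and without globin in those sums (0.51, limma adjusted p 0.0483). It failed under the other 10 of 12 alternatives. Those included equal medians (0.34, limma adjusted p 0.124) and the fit without OXCT1mKO 2, where the difference was 0.25 (limma adjusted p 0.326). Its exons share 1097 of 6648 bases with genes on the other strand, among them Ttc33, and the strand setting of the counting is not given in the sources used here. Ptger2 (EP2) was 0.646 and 0.549 RPKM in control libraries against 0.584 and 0.73 RPKM in OXCT1mKO. Its groups overlapped, and an exact two-sided permutation test gave p = 0.667. In RPKM, Ptger4 was 19.7 to 26.5 times the level of Ptger2 in each of the 4 libraries.

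Leukotriene synthesis needs Alox5, the 5-lipoxygenase, and Alox5ap, the membrane protein FLAP that presents arachidonic acid to it. Alox5ap was the most abundant of the 10 genes in both groups. It lies on the plus strand of chromosome 5, from 149264767 to 149288153 in GRCm38, and 189 of its 1420 exonic bases overlap an antisense gene, Gm19719. The controls measured 34.4 and 33.7 RPKM, and OXCT1mKO measured 93.3 and 77.1 RPKM. The means ± SD were 34.05 ± 0.52 and 85.2 ± 11.5 RPKM (n = 2). The controls lay close together and the lower OXCT1mKO library was 2.24-fold above the higher control. On the log2 scale it rose by 1.29 ± 0.12 (limma adjusted p 0.0127), and 98.1% of the tested genes had a lower fold change. This call was lost without OXCT1mKO 1 (1.16, limma adjusted p 0.105) and without OXCT1mKO 2 (1.43, limma adjusted p 0.0709).

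Alox5 was low throughout, at 0.809 and 1.84 RPKM in control libraries against 2.28 and 1.97 RPKM in OXCT1mKO. The OXCT1mKO libraries were above both controls, but control 2 was closer to them than to control 1. The log2 fold change was 0.46 ± 0.25 (limma adjusted p 0.205). It was 0.13 without control 1 (limma adjusted p 0.537) and 0.79 without control 2 (limma adjusted p 0.0345), so control 1 carried most of the difference. Control 1 also had the lowest sum of neutrophil markers, at 183 RPKM against 418 to 1353 RPKM in the other libraries. Most of that sum was S100a8 and S100a9. Csf3r, Cxcr2, Ltf and Ngp were lowest in control 1 too, but Retnlg, Mmp9, Camp and Ly6g were not. Retnlg was 45.6 and 60.5 RPKM in control libraries against 22.0 and 14.5 RPKM in OXCT1mKO (limma adjusted p 0.0159, lower). The part of neutrophils in the Alox5 difference was not tested.

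Ltc4s, the leukotriene C4 synthase of the same membrane protein family as FLAP, was 8.49 and 11.3 RPKM in control libraries against 9.03 and 8.47 RPKM in OXCT1mKO. The groups overlapped, and the log2 difference was -0.15 ± 0.15 (limma adjusted p 0.477). Its antisense neighbour Gm26542 covers 268 of its 1014 exonic bases. The ratio of Alox5ap to Ltc4s within a library was 4.05 and 2.99 in the controls and 10.3 and 9.11 in OXCT1mKO. Alox5ap was thus higher relative to Ltc4s in both OXCT1mKO libraries than in both controls. The ratio of Alox5ap to Alox5 did overlap, at 42.5 and 18.3 in the controls and 41.0 and 39.2 in OXCT1mKO.

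**Figure D2:**
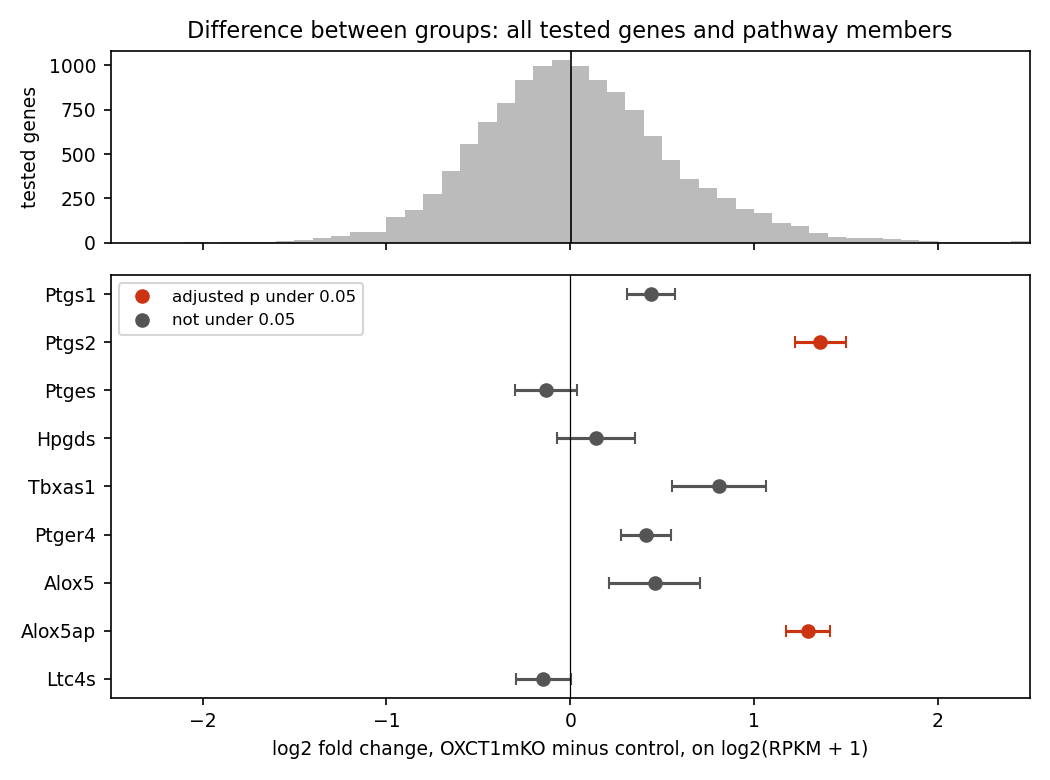
Upper panel, number of tested genes by log2 fold change (OXCT1mKO minus control, on log2(RPKM + 1), axis limited to the central range, median as a line); lower panel, the 9 tested members with their SE. Ptgs2 at 1.36 and Alox5ap at 1.29, in red, passed the limma threshold and lie in the upper tail of all genes, while Ptges at -0.13 and Ltc4s at -0.15 lie near its middle.

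In the order of levels, Alox5ap led in both groups. In the controls Ptgs1 (26.7 RPKM) and Ptgs2 (24.3 RPKM) followed with overlapping libraries, then Ptger4 (12.6 RPKM), Ltc4s and Tbxas1 (9.87 and 9.08 RPKM, overlapping), and Ptges, Hpgds and Alox5 between 2.06 and 1.33 RPKM, each overlapping the next. In OXCT1mKO Ptgs2 (64.4 RPKM) stood above Ptgs1 (36.5 RPKM) with no overlap. There, Ptger4 (17.2 RPKM) and Tbxas1 (16.2 RPKM) overlapped and Ltc4s (8.75 RPKM) was below both. Ptger2 was last in both groups, at 0.598 and 0.657 RPKM.

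**Figure D3:**
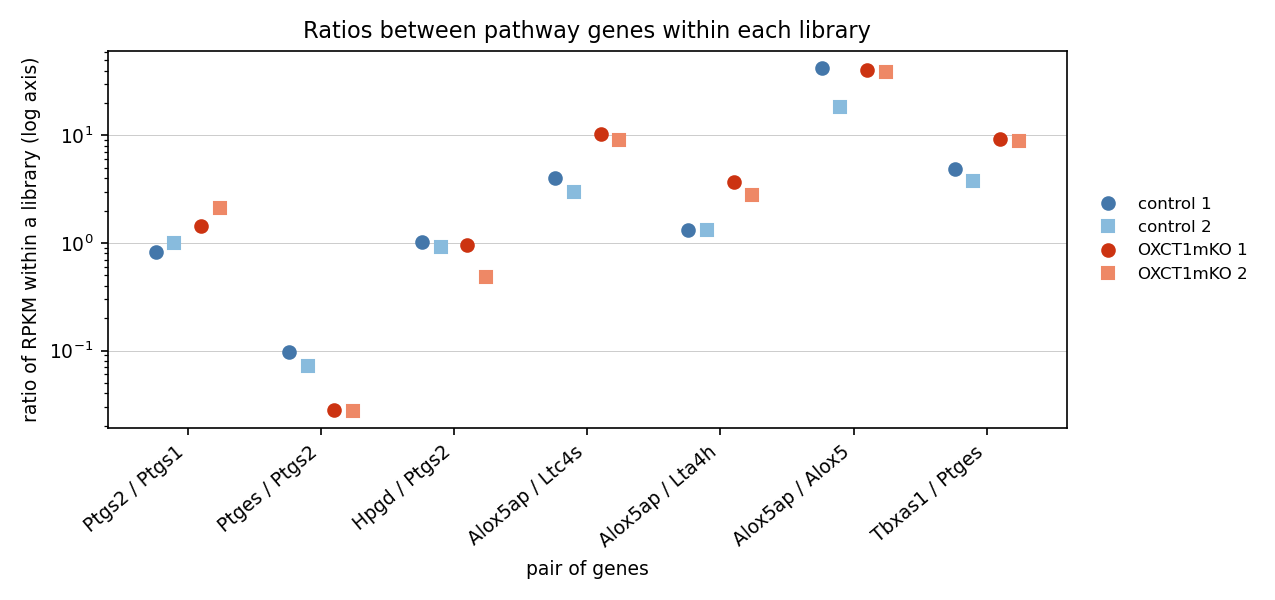
Ratios of RPKM between pairs of pathway genes within each library, on a log axis, with 1 point per library. Ptgs2 over Ptgs1 and Alox5ap over Ltc4s are higher in both OXCT1mKO libraries than in both controls and Ptges over Ptgs2 is lower, while Alox5ap over Alox5 overlaps.

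In all, 18 within-library ratios were computed, chosen after the values had been seen, and the smallest exact permutation p among them was 0.33 (0.5 after Benjamini-Hochberg adjustment over the 18). Among them, each member was set against the summed level of 10 pan-macrophage markers. The largest parts of that sum were C1qa, C1qb and C1qc, of which none was called. Csf1r and Mpeg1 rose by more on the log2 scale (1.71 and 1.80) than Ptgs2 (1.36) and Alox5ap (1.29). Adgre1 (1.24), Mertk (1.21) and Cd68 (0.81) were called higher with smaller rises. The ratios therefore depend on the markers summed. Per 1000 RPKM of the summed markers, Ptgs2 was 16.2 and 31.8 in the controls and 36.2 and 42.7 in OXCT1mKO. For Alox5ap the values were 23.0 and 44.0 in the controls and 59.9 and 45.6 in OXCT1mKO, so that control 2 came close to OXCT1mKO 2. Tbxas1 was 7.68 and 8.69 in the controls and 9.44 and 10.5 in OXCT1mKO, a narrower spread than in RPKM. On this scale the controls enclosed the OXCT1mKO values of Ptgs1, at 19.5 and 31.7 against 24.9 and 20.2, and those of Ptger4, at 8.52 and 16.3 against 9.72 and 11.4. Alox5 (0.541 and 2.41 against 1.46 and 1.16) and Ltc4s (5.67 and 14.7 against 5.80 and 5.00) overlapped as well. The remaining 3 members were lower in both OXCT1mKO libraries on this scale. Ptges was 1.58 and 2.29 against 1.015 and 1.18, Hpgds was 1.499 and 1.81 against 1.12 and 1.43, and Ptger2 was 0.432 and 0.718 against 0.375 and 0.431.

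Markers of several cell types moved with the groups. Of all tested genes, 16.4% were called higher and 16.4% lower. Pan-macrophage markers, with 5 of 10 called higher and 0 lower, summed to 765 to 1497 RPKM in the controls and 1558 to 1692 RPKM in OXCT1mKO. Kupffer cell markers, with 7 of 8 higher, went from 35.7 to 39.3 RPKM in the controls to between 279 and 466 RPKM in OXCT1mKO. Monocyte markers, also with 7 of 8 higher, were 237 to 282 RPKM in the controls and 590 to 692 RPKM in OXCT1mKO. Liver endothelial markers (6 of 8 higher) were 701 to 848 RPKM against 1240 to 1380 RPKM, and conventional dendritic cell markers (6 of 8 higher) 63.5 to 94.2 RPKM against 149 to 184 RPKM. No marker of these 5 lists was at 0 in all libraries. Other sums were lower in both OXCT1mKO libraries. T cell markers (3 of 7 called lower, 0 higher) were 104 to 171 RPKM in the controls and 33.99 to 62.5 RPKM in OXCT1mKO. Epithelial markers (1 of 6 higher, 1 lower) were 651 to 992 RPKM against 528 to 592 RPKM, and natural killer cell markers (2 of 6 higher, 2 lower) 41.3 to 58.7 RPKM against 26.6 to 39.7 RPKM. The largest part of the natural killer sum was Gzma, at 47.3 and 32.0 RPKM in control libraries against 13.5 and 22.6 RPKM in OXCT1mKO. Gzma and Eomes were called lower, but Ncr1 and Klrk1 were called higher, so the natural killer markers did not move together. The share called among the epithelial markers was 33.3%, close to the 32.8% of all tested genes. The part of any of these cells in the rises of Ptgs2 and Alox5ap was not tested.

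Other cells known for eicosanoid synthesis showed different patterns. Platelet and megakaryocyte markers, of which 2 of 9 were tested, summed to 36.2 to 41.9 RPKM in the controls and 21.7 to 25.1 RPKM in OXCT1mKO. Most of that sum was Pf4, at 32.5 to 38.7 RPKM against 17.3 to 21.7 RPKM, which was called lower. Not all markers followed it. Itga2b was 1.18 and 2.06 RPKM against 1.56 and 1.31 RPKM (limma adjusted p 0.767), and Ppbp was higher in both OXCT1mKO libraries, at 1.52 and 0.982 RPKM against 0.639 and 0.484 RPKM. Gp9 was 0.221 RPKM and listed at 0 in the controls and was 0.404 and 0.559 RPKM in OXCT1mKO, and Gp6 did not exceed 0.0806 RPKM. Mast cell and basophil markers overlapped, at 30.6 and 94.7 RPKM in control libraries against 65.6 and 79.8 RPKM in OXCT1mKO. The mast cell protease genes Mcpt4 and Tpsb2 were listed at 0 in control 1 and at 2.80 to 7.80 RPKM in the other libraries. The 6 tuft cell markers summed to 8.98 and 4.595 RPKM in control libraries against 2.05 and 3.45 RPKM in OXCT1mKO, without overlap. Most of that sum was Avil, at 8.61 and 4.04 RPKM against 1.76 and 2.95 RPKM (-1.08 ± 0.36, limma adjusted p 0.0756). Of the defining tuft cell genes, Pou2f3 was listed at 0 in 3 libraries and at 0.0394 RPKM in OXCT1mKO 2, and Trpm5 did not exceed 0.0402 RPKM. The part of these cells in the results was not tested.

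**Figure D4:**
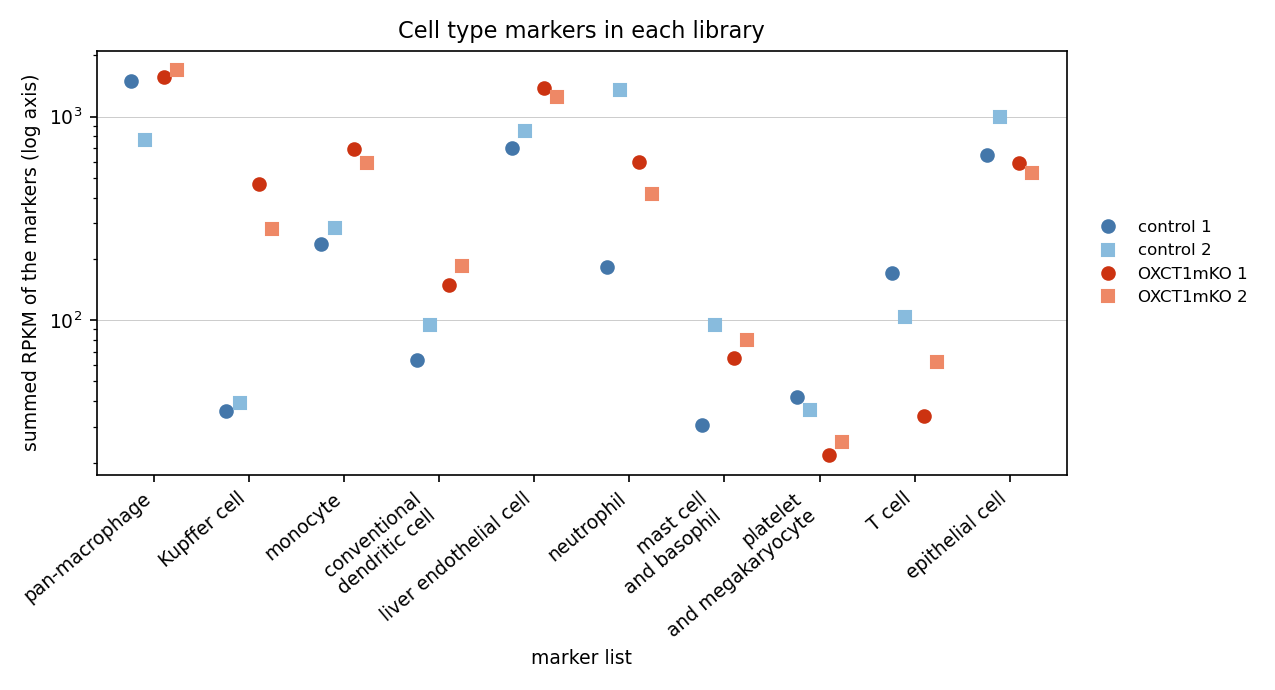
Summed RPKM of cell type marker lists in each library, on a log axis. Kupffer cell, monocyte, dendritic cell and endothelial sums are higher in both OXCT1mKO libraries, platelet and T cell sums are lower, and neutrophil sums are furthest apart between the 2 controls.

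The rest of the eicosanoid pathway was described with 11 lists by role, of which 107 genes were in the table and 77 were tested. Of these, 18 rose and 7 fell, a share of 32.5% beside the 32.8% of all tested genes. With equal RPKM sums 27 rose and 4 fell. The median log2 fold change was 0.25. Of 3 tested leukotriene receptors 2 rose and 0 fell. Ltb4r1, the high-affinity leukotriene B4 receptor, was 2.32 and 3.70 RPKM in control libraries against 7.10 and 6.10 RPKM in OXCT1mKO (log2 fold change 0.94 ± 0.20, limma adjusted p 0.028). Cysltr1, which binds leukotriene D4, was 1.24 and 0.944 RPKM in control libraries against 2.75 and 2.42 RPKM in OXCT1mKO (0.78 ± 0.15, limma adjusted p 0.0217).

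Of 3 other prostanoid receptors tested, 2 were called higher and 0 lower, but 1 of these 2 has an uncertain level, kept its call under only 5 of 12 alternatives and is not described. The thromboxane receptor gene Tbxa2r was 7.02 and 5.90 RPKM in control libraries against 12.8 and 12.1 RPKM in OXCT1mKO, without overlap (0.85 ± 0.12, limma adjusted p 0.0131). Of all tested genes, 32.8% were called and 16.4% were called upward. Among receptors for lipoxins and resolvins, 1 of 3 tested rose (33.3%, close to that share), namely Cmklr1, which binds chemerin and resolvin E1. It was 3.41 and 3.24 RPKM in control libraries against 9.33 and 9.15 RPKM in OXCT1mKO (1.24 ± 0.10, limma adjusted p 0.0127).

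Among prostanoid synthases outside the 10 genes, no rise passed. Of 6 tested 2 fell and 0 rose. The share called, 33.3%, was close to the 32.8% of all tested genes, of which 16.4% were called downward. Akr1b3, an aldose reductase with prostaglandin F synthase activity, went from 36.5 ± 3.07 to 26.0 ± 0.75 RPKM (SD, n = 2; -0.47 ± 0.10). Ptges3, the p23 co-chaperone also called cytosolic prostaglandin E synthase, went from 56.8 ± 6.00 to 41.5 ± 0.95 RPKM (-0.44 ± 0.11). Both of these falls failed the threshold with equal RPKM sums, at differences of -0.31 for Akr1b3 (limma adjusted p 0.066) and -0.27 for Ptges3 (0.164).

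In the leukotriene branch 1 of 10 tested genes rose and 2 fell, a share of 30% beside the 32.8% of all tested genes. Mgst2 and Mgst3, microsomal glutathione transferases of the FLAP family that can conjugate leukotriene A4, fell by 0.95 ± 0.17 and 0.69 ± 0.18 on the log2(RPKM + 1) scale. The Mgst3 call held under only 4 of 12 alternatives. It was lost with equal RPKM sums (limma adjusted p 0.0868) and without any 1 of the 4 libraries, and the difference was -0.44 without OXCT1mKO 1 (limma adjusted p 0.17). Mgst2 was 11.1 and 12.5 RPKM in control libraries against 6.63 and 4.78 RPKM in OXCT1mKO. The exporter gene Abcc1 rose from 3.61 ± 0.19 to 5.92 ± 0.10 RPKM. Lta4h, which makes leukotriene B4, was 25.9 and 25.6 RPKM in control libraries against 25.4 and 27.6 RPKM in OXCT1mKO (0.04 ± 0.09, limma adjusted p 0.741). The ratio of Alox5ap to Lta4h went from 1.33 and 1.32 in the controls to 3.67 and 2.80 in OXCT1mKO.

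Upstream, the list for arachidonate release was mixed, with 2 of 12 tested genes higher and 1 lower. The share called was 25%, beside the 32.8% of all tested genes. Daglb, a diacylglycerol lipase, rose from 4.05 ± 0.96 to 8.01 ± 0.21 RPKM, and Pla2g7 rose from 19.7 ± 5.12 to 34.1 ± 1.28 RPKM. The exons of Daglb share 2309 of 9567 bases with Rac1 on the other strand, and the strand setting of the counting is not given. The level of Daglb may therefore include reads of Rac1. Pla2g7, listed with the phospholipases, is the platelet-activating factor acetylhydrolase, so its rise is not itself one of arachidonate release. The secreted phospholipase gene Pla2g5 fell from 12.5 ± 0.76 to 7.51 ± 0.18 RPKM. The cytosolic phospholipase gene Pla2g4a, the main source of arachidonate for both branches, was 3.08 and 1.68 RPKM in control libraries against 4.55 and 3.98 RPKM in OXCT1mKO (0.67 ± 0.23, limma adjusted p 0.0808). In the supply of arachidonate, the elongase gene Elovl5 rose and the acyltransferase gene Lpcat3 fell, out of 7 tested.

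Breakdown was represented by Hpgd, which oxidises prostaglandin E2 to an inactive product. It was 24.9 and 22.4 RPKM in control libraries against 54.3 and 35.0 RPKM in OXCT1mKO (0.86 ± 0.22, limma adjusted p 0.0417). It was the 1 called gene of 7 tested for transport and inactivation, or 14.3% beside the 32.8% of all tested genes. The call was lost with no filter (limma adjusted p 0.092) and without any 1 of the 4 libraries, and the difference was 0.55 without OXCT1mKO 1 (limma adjusted p 0.136). The ratio of Hpgd to Ptgs2 was 1.03 and 0.92 in the controls and 0.961 and 0.484 in OXCT1mKO, so the groups overlapped. In the epoxide branch, the epoxide hydrolase gene Ephx1 fell from 77.8 ± 2.94 to 44.3 ± 3.96 RPKM. The epoxygenase gene Cyp2j6 rose from 1.64 ± 0.13 to 2.82 ± 0.34 RPKM (0.53 ± 0.14, limma adjusted p 0.0421). These calls made up 66.7% of only 3 tested genes. The Cyp2j6 call was lost with no filter (limma adjusted p 0.0877), and without any 1 of the 4 libraries (0.0579 to 0.243). Neither of the 2 tested lipoxygenases outside the members passed, and Alox15 was 15.8 RPKM in control 2 against 2.27 to 3.0 RPKM elsewhere.

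Behind the E2 receptors, 7 of 21 tested genes of cyclic AMP signalling rose and 0 fell. The share called, 33.3%, was close to the 32.8% of all tested genes, of which 16.4% were called upward. The phosphodiesterase genes Pde4b and Pde4a, which break down cyclic AMP, were among them. Pde4b was 12.0 and 16.3 RPKM in control libraries against 26.8 and 29.5 RPKM in OXCT1mKO (0.95 ± 0.16, limma adjusted p 0.018). Pde4a rose from 0.767 ± 0.04 to 2.21 ± 0.02 RPKM. The protein kinase A subunit genes Prkacb (0.55 ± 0.09) and Prkar2a (0.60 ± 0.10) rose as well. Without OXCT1mKO 1 or OXCT1mKO 2, limma called 0 genes of the 11 lists, with 23 and 28 at an unadjusted p under 0.05. With no filter on low genes, the calls of Daglb, Pla2g7, Elovl5, Cysltr1, Ltb4r1 and Ptges3 were lost too (limma adjusted p 0.0501 to 0.0766).

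**Figure D5:**
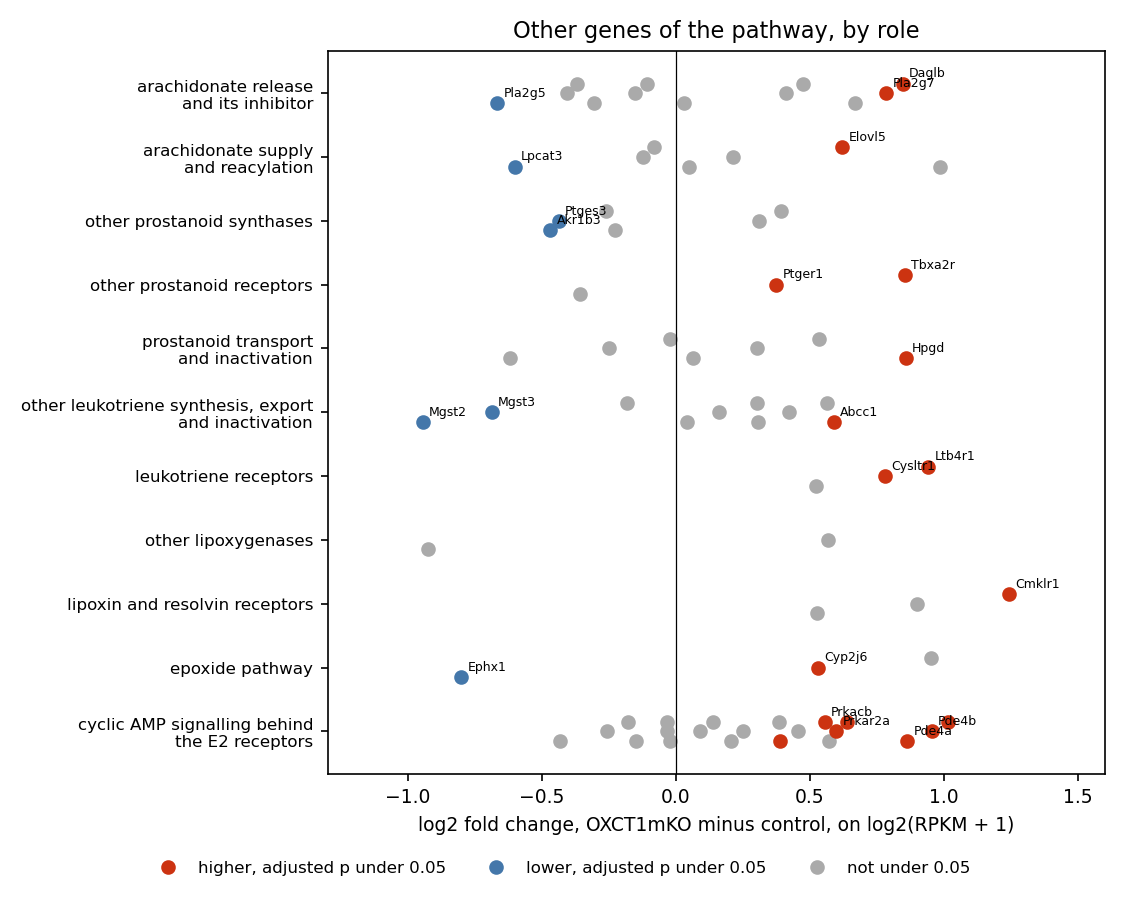
Log2 fold change (OXCT1mKO minus control, on log2(RPKM + 1)) of the 77 other tested pathway genes by role, 1 point per gene, with called genes in red (higher) or blue (lower) and up to 4 named in each row. Calls among receptors lie to the right, calls among other prostanoid synthases lie to the left, and the cyclic AMP list has 7 calls on the right and 0 on the left.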

How the data were processed

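The authors deposited 1 table of RPKM values, genes in rows and libraries in columns, and the columns were matched to samples by their titles. Per the submitters' processing notes, STAR 2.10, R 4.0.5 and build mm10 were used, with no role stated. Which program counted reads, whether by strand and on which annotation, is not given in the sources used here, nor are the sorting antibodies. Values were not rescaled. Genes with a mean of at least 1 RPKM were tested on log2(RPKM + 1) with limma 3.58.1 under R 4.3.3, with 1 coefficient for the group, moderated variances with a trend and two-sided p-values adjusted by Benjamini-Hochberg. The fit was tested on simulated data. No count model was used, and no set test was run. Alternatives changed the pseudocount to 0.1, the filter, the trend, the scaling, the replicate block or the libraries included.

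The members and lists were chosen with earlier results of these data known. The text names Oxct1, all members and, in each pathway list, up to 4 tested genes with the smallest p, besides genes whose role the text needs. Other marker genes named were chosen after their values were seen. Gene positions came from GENCODE M21 on GRCm38, the assembly also called mm10. None of the members or pathway genes had values identical to another row. The level of 1 of the 2 called genes among the other prostanoid receptors is uncertain, and its result is not reported here.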

Additional observations from a re-analysis of the deposited data

How the results depend on the processing

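The count of called genes, 4110 of all tested, became 2340 with no filter on low genes and ranged from 1 to 4431 when 1 library was left out. The 2 calls among the members became 5 with equal RPKM sums and 4 with globin left out of those sums, and ranged from 0 to 4 when 1 library was left out. The 25 calls among the other pathway genes became 15 with no filter and ranged from 0 to 30 when 1 library was left out. Ptgs2 and Alox5ap were each called under 10 of 12 alternatives, all but those that left out an OXCT1mKO library, in which the lone library was assumed to vary like the controls. Among the members, the log2 fold change turned sign in 3 genes: Ptges ranged from -0.278 to 0.014 when 1 library was left out, Hpgds from -0.0817 to 0.362 and Ltc4s from -0.331 to 0.038, and Ltc4s was 0.0038 with equal RPKM sums. The cause of these shifts was not tested. With the replicate number as a block, 3606 of all genes, 3 members (Ptgs1 besides Ptgs2 and Alox5ap) and 25 other pathway genes were called. The labels do not say that a number marks an animal or a day, and deviations of same-numbered libraries from their group means correlated at 0.05 across 12523 genes. Without read counts, the precision of low genes such as Ptger2 and Alox5 is unknown.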

Other observations

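Several pathway genes stayed under the filter of a mean RPKM of 1 and were not tested, and the ones given here were chosen after their values were seen. Akr1c18, a hydroxysteroid dehydrogenase with prostaglandin F synthase activity in the mouse, was 1.41 and 1.08 RPKM in control libraries against 0.151 and 0.041 RPKM in OXCT1mKO. Ptgir, the prostacyclin receptor, was 0.427 and 0.302 RPKM in control libraries against 0.998 and 0.945 RPKM in OXCT1mKO. Dpep1, a dipeptidase that converts leukotriene D4, was 0.521 and 0.284 RPKM in control libraries against 1.5 and 1.04 RPKM in OXCT1mKO. Pla2g1b, the pancreatic phospholipase A2, was 0.381 and 0.357 RPKM in the controls and was listed at 0 in both OXCT1mKO libraries. In each of these 4 genes the groups did not overlap, as in 74.7% of tested genes.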
